A study of Mus musculus with 4 samples.

Results

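The nuclei described here are proximal tubule nuclei carrying RNA of the later tubule segments, S2 and S3. They were chosen from single-nucleus RNA libraries by UMIs (unique molecular identifiers, each counting 1 captured RNA molecule). A barcode was kept with at least 200 genes and at most 10% mitochondrial UMIs. It had to hold at least 3 of the 4 proximal tubule genes Slc34a1, Lrp2, Cubn and Slc27a2, at least 1 UMI of Slc5a10, Slc7a13 or Slc22a7, and no UMI of Slc5a2. In all, 860 nuclei passed, out of 11297 proximal tubule nuclei and 38481 barcodes that met the gene and mitochondrial limits. By library there were 166 gated nuclei in MRL/lpr mice at 6 weeks, 150 in C57BL/6 mice at 6 weeks, 290 in MRL/lpr mice at 10 weeks and 254 in C57BL/6 mice at 10 weeks. All mice were female, and the tissue was kidney, named as renal cortex in the series' design. MRL/lpr mice carry the lpr mutation of the death receptor Fas and develop a lupus-like nephritis. C57BL/6 mice served as the other strain, and no MRL group with intact Fas is among the samples, so strain background and the Fas mutation cannot be told apart. Each strain and age was 1 library, so every interval below covers counting error only and no test between conditions was run. The number of mice behind a library was not given in the labels.

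The proximal tubule takes back most of the filtered water, salt, glucose, amino acids and phosphate, and its cells differ along its length. S1, at the glomerular end, reabsorbs glucose with the high-capacity transporter Slc5a2. S2 is rich in carriers that secrete organic anions, and S3, the straight part, takes up what is left and carries its own peptidases and amino acid and steroid-handling genes, several of them sex-biased in mice. Slc5a10 transports mannose and fructose, Slc22a7 is an organic anion transporter, and Slc7a13 is an amino acid transporter of S3.

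The gated nuclei held 180777 UMIs in MRL/lpr and 178401 in C57BL/6 mice at 6 weeks, and 270515 in MRL/lpr and 276661 in C57BL/6 mice at 10 weeks. Their median depth was 953 UMIs in MRL/lpr and 1053.5 in C57BL/6 mice at 6 weeks, and 860 in MRL/lpr and 1004 in C57BL/6 mice at 10 weeks. The comparison class was 4175 proximal tubule nuclei with Slc5a2 and without the 3 S2 and S3 genes, here called Slc5a2-positive, whose median depth was 951 UMIs in 6-week MRL/lpr, 938 in 6-week C57BL/6, 829 in 10-week MRL/lpr and 959.5 in 10-week C57BL/6 mice. The lowest UMI count of a barcode was 308 in MRL/lpr at 6 weeks and between 175 and 228 in the other libraries. Pairs of libraries shared 112 to 143 barcode sequences, none of them between gated nuclei. Doublets were kept, since the rule names none. The doublet caller Scrublet marked 18 gated nuclei in MRL/lpr and 18 in C57BL/6 mice at 6 weeks, and 15 in MRL/lpr and 20 in C57BL/6 mice at 10 weeks. In MRL/lpr at 6 weeks the barcodes with the highest scores were marked, up to the expected rate. In the other libraries its automatic threshold was used, so the marks were not made alike.

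The values that chose the nuclei rested mostly on single molecules. A single UMI of the 3 genes was all that 137 of the gated nuclei had in MRL/lpr mice at 6 weeks (82.5%), 130 in C57BL/6 mice at 6 weeks (86.7%), 233 in MRL/lpr mice at 10 weeks (80.3%) and 199 in C57BL/6 mice at 10 weeks (78.3%). Slc5a10 was the main way in, with 127, 128, 237 and 212 nuclei in the same order, followed by Slc22a7 with 37, 25, 63 and 61. Just inside the limit on core genes were 116, 105, 166 and 192 nuclei with exactly 3, and 50, 45, 124 and 62 nuclei had all 4. Just outside it, 60, 52, 98 and 135 barcodes met the rest of the rule with 2 core genes. A further 22, 50, 46 and 44 nuclei were kept out by 1 UMI of Slc5a2.

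Free RNA in droplets can give such UMIs to any nucleus. Thick ascending limb nuclei, defined by at least 3 UMIs of Slc12a1 and Umod, should lack the 3 genes. A UMI of them was found in 1.57% of these nuclei in MRL/lpr and 1.68% in C57BL/6 mice at 6 weeks, and in 0.593% in MRL/lpr and 1.77% in C57BL/6 mice at 10 weeks. Among proximal tubule nuclei the share was 6.60% in MRL/lpr and 9.07% in C57BL/6 mice at 6 weeks, and 11.05% in MRL/lpr and 13.3% in C57BL/6 mice at 10 weeks. The median depths were 434 to 513 UMIs in the limb and 812 to 949 UMIs in the proximal tubule. After each nucleus had been thinned to 500 UMIs, the limb share was 0.633% to 1.07% over the 4 libraries and the proximal tubule share 3.57% to 7.49%, so the proximal tubule stayed above the limb in every library. The limit of 3 core genes was also met by 12.02% of limb nuclei in MRL/lpr and 7.20% in C57BL/6 mice at 6 weeks. At 10 weeks it was met by 6.53% of limb nuclei in MRL/lpr and 7.07% in C57BL/6 mice. That limit alone thus did not set all limb nuclei apart from the proximal tubule. The source of these core gene UMIs was not tested.

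The gated nuclei made up a larger part of the proximal tubule at 10 weeks than at 6 in both strains, while the ratio between the strains had no set direction. They were 5.12% (exact 95% interval 4.39 to 5.94) of proximal tubule nuclei in MRL/lpr and 6.24% (5.31 to 7.28) in C57BL/6 mice at 6 weeks. At 10 weeks they were 9.18% (8.20 to 10.2) in MRL/lpr and 10.2% (9.02 to 11.4) in C57BL/6 mice. The ratio of MRL/lpr over C57BL/6 was 0.821 (0.654 to 1.03) at the younger age and 0.901 (0.759 to 1.07) at the older, and both intervals include 1. The ratio of 10 over 6 weeks was 1.79 (1.48 to 2.18) in MRL/lpr and 1.63 (1.33 to 2.01) in C57BL/6 mice. In nuclei thinned to 500 UMIs, as the mean of 50 random draws, the age ratios were 2.13 and 1.64, whereas the strain ratio was 0.865 at 6 weeks and 1.12 at 10 weeks, on the other side of 1. Over the draws the 10-week strain ratio ran from 0.873 to 1.35. The strain ratio also crossed 1 with other gates: it was 1.43 at 6 weeks without Slc5a10, 1.08 at 6 weeks with at least 2 UMIs of the 3 genes, and 1.35 at 10 weeks with all 4 core genes. Thinning left out 65 and 113 proximal tubule nuclei under 500 UMIs in MRL/lpr at 6 and 10 weeks, and 16 and 53 in C57BL/6, and the limit on core genes was applied again after it. The Slc5a2-positive share was 31.9% at 10 weeks, against 36.1% at 6 weeks in MRL/lpr, and 35.8%, against 45.8% in C57BL/6. After thinning it was 21.8% against 21.7% in MRL/lpr and 23.2% against 31.0% in C57BL/6, so its lower value at 10 weeks held in C57BL/6 alone.

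**Figure D1:**
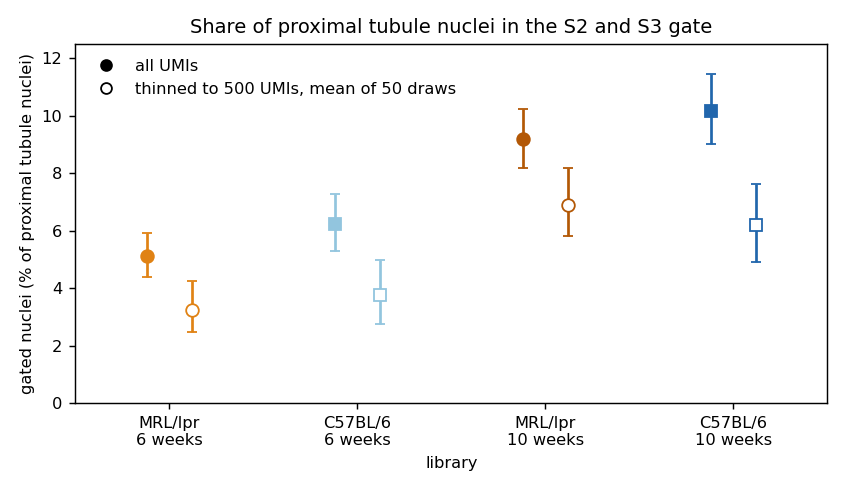
Share of proximal tubule nuclei that passed the S2 and S3 gate (vertical axis, percent) in each of the 4 libraries (horizontal axis); filled points use all UMIs, open points nuclei thinned to 500 UMIs as the mean of 50 draws, and bars are 95% binomial intervals. With all UMIs both 10-week libraries, at 9.18% and 10.2%, lie above both 6-week libraries, at 5.12% and 6.24%.

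Genes outside the rule set the gated nuclei apart from the Slc5a2-positive ones in the same direction in every library, and 4 of the 12 highest, Slc7a12, Aadat, Serpina1f and Slc22a19, were on the list of S3 markers. Levels are given as CPM, that is, the UMIs of a gene per 1000000 UMIs of all nuclei of that class and library. Since the classes were made from measured RNA, this contrast is a description and was not tested. Of 10466 genes with at least 50 UMIs, 109 (1.04%) were at least 2-fold higher in gated nuclei in all 4 libraries and 65 (0.621%) at least 2-fold lower. Regardless of size, 12.7% were higher in all 4 and 13.1% lower. A sum of 0 was set at 3 UMIs, which is a larger CPM in the gated class with its smaller total. A gene without UMIs in the gated nuclei of a library could therefore count as higher there. Gm3336 did so in C57BL/6 mice at 10 weeks, with 0 UMIs in gated nuclei, against 4 in Slc5a2-positive nuclei. How many of the higher genes this concerns was not determined.

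Slc7a12, an amino acid transporter, stood furthest above. It reached 1156 CPM in MRL/lpr and 493 CPM in C57BL/6 gated nuclei at 6 weeks and 588 CPM and 1059 CPM at 10 weeks, against 22.0, 15.0, 9.14 and 14.4 CPM in the Slc5a2-positive nuclei of the same libraries. The log2 ratio was 5.04 to 6.20. Kap, the kidney androgen-regulated protein, had 5227, 2618, 2225 and 3510 CPM in gated nuclei in that order of libraries, against 285, 159, 133 and 208 CPM in Slc5a2-positive nuclei, a log2 ratio of 4.04 to 4.20. Aadat, an aminotransferase of the kynurenine and lysine pathways, had 2473, 1457, 2876 and 2418 CPM, against 84.9, 94.3, 139 and 120 CPM. These 3 genes were named for large ratios in all 4 libraries, so a gap between the classes was built into their choice. Slc7a12 was seen in 29.5%, 18.0%, 18.3% and 27.2% of gated nuclei, against 0.396% to 1.28% of Slc5a2-positive and 0.297% to 1.22% of limb nuclei. Kap was found in 34.5% to 63.9% of gated nuclei, in 5.75% to 14.4% of Slc5a2-positive nuclei and in 3.56% to 10.0% of limb nuclei, and the part of free RNA in its level was not tested.

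The other genes highest by this rule were Eva1c, Abcc3 (an organic anion efflux pump), Mep1b (the beta subunit of the brush border protease meprin), Mettl7a2, Hsd17b14 (a steroid dehydrogenase), Serpina1f, 4930533I22Rik, Slc22a19 (an organic anion transporter) and Ldc1. Their log2 ratio nearest 0 over the 4 libraries was 3.47 for Ldc1 and larger for the others, with a sum of 0 set at 3 UMIs for Hsd17b14 in 1 library. Mep1b had 160 CPM in MRL/lpr and 106 CPM in C57BL/6 gated nuclei at 6 weeks and 99.8 CPM and 155 CPM at 10 weeks, against 1.02 to 5.01 CPM in Slc5a2-positive nuclei. Mettl7a2 had 194, 286, 166 and 488 CPM in gated nuclei, against 1.89, 17.5, 6.09 and 11.5 CPM.

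Of the 12 lowest genes, Slc5a12, Spp2 and Slc7a8 were on the list of S1 markers. Slc5a12, a lactate transporter, had 321 CPM in MRL/lpr and 757 CPM in C57BL/6 gated nuclei at 6 weeks and 551 CPM and 726 CPM at 10 weeks, against 1881, 5462, 3670 and 5264 CPM in Slc5a2-positive nuclei. Its log2 ratio was -2.86 to -2.55. Col8a1, a collagen chain, had 0, 1, 3 and 1 UMIs in gated nuclei, against 428, 170, 134 and 71 UMIs in Slc5a2-positive nuclei. It was thus nearly absent from the gated nuclei of all 4 libraries. Angpt1, a ligand of the endothelial receptor Tie2, had 2, 11, 23 and 10 UMIs, against 484, 533, 588 and 524. Spp2, a secreted phosphoprotein, had 210, 275, 155 and 249 CPM, against 1070, 1144, 698 and 911 CPM. The remaining lowest genes were Gm14964, Slc34a3 (a phosphate transporter), Unc5c (a netrin receptor), Agmo, Exph5, Etv1, Osr2 and Slc7a8 (an amino acid exchanger), each at least 2-fold lower in all 4 libraries. Exph5 and Osr2 rest on 1 UMI, and 2 in C57BL/6 at 10 weeks, in gated nuclei, and their counting intervals include 0 in 3 libraries for Exph5 and in both 6-week libraries for Osr2. Genes such as these passed the minimum of 50 UMIs through the Slc5a2-positive nuclei.

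Listed segment markers that the rule did not use followed the label for S3 and less so for S2. Of 25 S3 markers, 22 had enough UMIs. Of these 21 were higher in gated nuclei in all 4 libraries and 15 at least 2-fold, with medians of 2.12, 2.17, 1.99 and 1.84 (log2) in MRL/lpr and C57BL/6 at 6 weeks and MRL/lpr and C57BL/6 at 10 weeks. The median of all genes compared lay between -0.03 and 0.02. Ghr, the growth hormone receptor and the most abundant member, had 10960, 7332, 8776 and 7923 CPM in gated nuclei, against 2306, 2238, 2442 and 2462 CPM in Slc5a2-positive nuclei. Napsa, an aspartic protease, and Slc6a18, a neutral amino acid transporter, had log2 ratios of 3.32 to 4.03 and 2.14 to 3.19. Of 12 S1 markers 8 were lower in gated nuclei in all 4 libraries, 5 of them at least 2-fold, and Pck1 and Slc16a4 were higher in all 4.

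All 9 S2 markers had enough UMIs, and 8 were higher in gated nuclei in all 4 libraries but none at least 2-fold, with medians of 0.54, 0.35, 0.47 and 0.55 (log2). The basolateral dicarboxylate transporter Slc13a3, a marker of the class outside the rule, had 542 CPM in MRL/lpr and 723 CPM in C57BL/6 gated nuclei at 6 weeks and 506 CPM and 868 CPM at 10 weeks, against 334, 503, 366 and 582 CPM in Slc5a2-positive nuclei. It was found in 42.2%, 50.0%, 33.4% and 53.1% of gated nuclei, against 29.8%, 34.7%, 25.1% and 41.4% of Slc5a2-positive nuclei and 4.75% to 8.57% of limb nuclei. Among proximal tubule nuclei with neither Slc5a2 nor the 3 genes, the share was 38.6%, 49.1%, 34.8% and 56.2%, close to the gated one. In those 6009 nuclei the 25 S3 markers summed to 7246, 7489, 7734 and 7936 CPM, between 21806, 15123, 19825 and 19226 CPM in gated and 3905, 3946, 4430 and 4494 CPM in Slc5a2-positive nuclei. The 9 S2 markers summed to 5585, 5180, 5034 and 6315 CPM in them, close to 5598, 5112, 5242 and 5801 CPM in gated nuclei. In both C57BL/6 libraries the gated sum was the lower one. In Slc5a2-positive nuclei the S2 sum was 4387, 3957, 4071 and 4673 CPM. The S2 markers thus set gated nuclei apart from the Slc5a2-positive ones only. The gate therefore holds nuclei rich in S3 RNA but leaves other nuclei with S3 RNA outside, and most gated nuclei were admitted by 1 UMI.

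**Figure D2:**
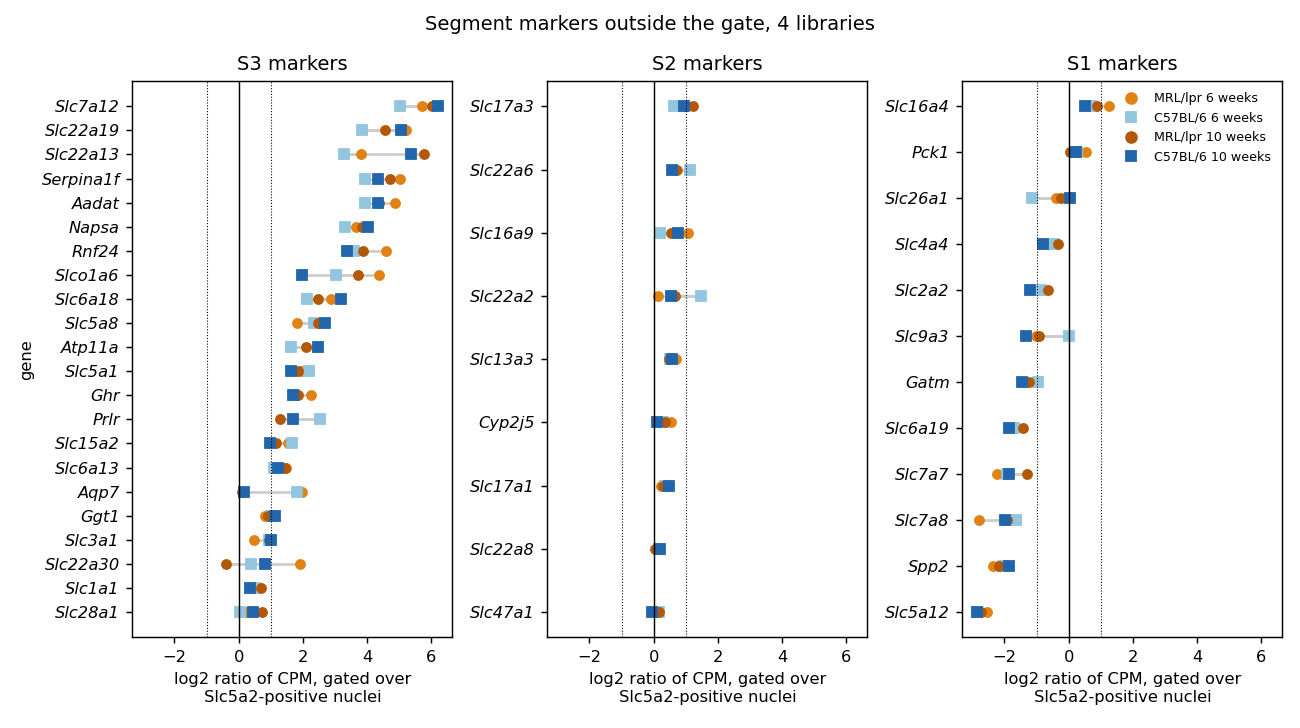
Log2 ratio of CPM in gated over Slc5a2-positive nuclei (horizontal axis) for markers of S3, S2 and S1 that the rule did not use (1 gene per row), with 1 point per library; dotted lines mark a 2-fold difference. Of 22 S3 markers 21 lie right of 0 in all 4 libraries. So do 8 of 9 S2 markers, though none is 2-fold higher in all 4. Of 12 S1 markers 8 lie left of 0 in all 4.

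Promoters of 3 genes that were higher and 1 that was lower in gated nuclei are shown, since each differed in the same direction in all 4 libraries. They come from RefSeq, build GRCm38.p6, and run from 250 bases before the start site to 50 after it. Of the 24 genes named for this contrast 16 had a promoter in the table. Capitals mark CAAAGNNCA, the core of sites bound by the tubule factor HNF4A, or GTTAAT, part of sites bound by HNF1, searched on both strands.
Kap: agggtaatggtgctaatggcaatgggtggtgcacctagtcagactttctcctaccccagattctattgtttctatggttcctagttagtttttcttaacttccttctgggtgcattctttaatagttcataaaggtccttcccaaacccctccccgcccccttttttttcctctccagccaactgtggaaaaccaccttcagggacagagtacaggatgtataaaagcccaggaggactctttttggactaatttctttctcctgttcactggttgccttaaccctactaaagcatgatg
Aadat: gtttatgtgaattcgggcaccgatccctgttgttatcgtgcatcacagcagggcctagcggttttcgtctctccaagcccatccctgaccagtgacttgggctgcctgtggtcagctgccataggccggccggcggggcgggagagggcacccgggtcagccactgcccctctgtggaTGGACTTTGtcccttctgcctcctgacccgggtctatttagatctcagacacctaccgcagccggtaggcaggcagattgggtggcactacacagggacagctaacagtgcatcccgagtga
Mettl7a2: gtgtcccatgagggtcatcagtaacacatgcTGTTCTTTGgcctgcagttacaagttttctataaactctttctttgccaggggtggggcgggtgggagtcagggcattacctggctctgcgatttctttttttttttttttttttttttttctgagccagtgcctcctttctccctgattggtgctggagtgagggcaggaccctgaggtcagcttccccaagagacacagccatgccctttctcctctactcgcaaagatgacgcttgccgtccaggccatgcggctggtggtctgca
Spp2: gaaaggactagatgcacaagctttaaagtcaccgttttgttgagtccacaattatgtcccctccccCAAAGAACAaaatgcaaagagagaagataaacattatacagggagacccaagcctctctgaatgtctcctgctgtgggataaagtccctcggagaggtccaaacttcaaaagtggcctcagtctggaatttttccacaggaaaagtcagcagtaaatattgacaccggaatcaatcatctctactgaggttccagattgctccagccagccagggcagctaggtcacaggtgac
The windows are chr6:133853618-133853917 on the minus strand for Kap, chr8:60505874-60506173 on the plus strand for Aadat, chr15:100352950-100353249 on the plus strand for Mettl7a2 and chr1:88406760-88407059 on the plus strand for Spp2. CAAAGNNCA was found at -72 from the start site in Aadat, at -219 in Mettl7a2 and at -184 in Spp2, and 6.36% of all 32851 promoters in the table hold it. Among these 3 genes are 2 higher and 1 lower in gated nuclei. GTTAAT, which 7.1% of promoters hold, was in none of the 4 windows. TATAAA stood at -31 in Kap and at -190 in Mettl7a2, and 13.6% of promoters hold it. These are matches of letters, and no binding was measured.

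The gated nuclei were not uniform. Those with a UMI of Slc22a7 carried more S3 RNA than those admitted by Slc5a10 alone. The latter carried more RNA of most S1 markers and of 3 of 9 S2 markers, Slc13a3, Slc22a6 and Slc22a8. The S2 markers Slc17a3 and Slc16a9 went the other way. This split was made after the values had been seen and is a description. It set 37, 25, 63 and 61 nuclei with Slc22a7 against 116, 124, 226 and 192 with Slc5a10 as the only one of the 3 genes. Of 4329 genes 56 (1.29%) were at least 2-fold higher in Slc22a7-positive nuclei in all 4 libraries and 44 (1.02%) at least 2-fold lower, whereas 10.3% were higher in all 4 and 14.5% lower regardless of size. Of 21 S3 markers with enough UMIs, 14 were higher in all 4 libraries, 11 of them at least 2-fold, and none was lower in all 4.

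Slc7a12 had 154, 57, 116 and 227 UMIs in the Slc22a7-positive nuclei, against 48, 31, 43 and 64 in the more numerous Slc5a10-only nuclei, a log2 ratio of CPM of 3.34, 2.72, 3.30 and 3.26. Aadat followed with 302, 137, 529 and 512 UMIs, against 143, 123, 245 and 156, and log2 ratios of 2.74, 1.99, 2.97 and 3.15. Ghr had log2 ratios of 2.10, 1.87, 2.01 and 2.03. The leading genes were otherwise Eva1c, Mettl7a2, Hsd17b14, Bdh1 (an enzyme of ketone body metabolism), Cd36 (a fatty acid receptor), Mep1b and Gm20400. Most UMIs of Slc7a12 and Aadat thus lay in the smaller group of nuclei. Not every S3 marker followed: Prlr, the prolactin receptor, had log2 ratios of -0.22, 0.40, -0.44 and -0.10, and Slc5a8, a monocarboxylate transporter, of -0.27, -0.56, 0.86 and -0.15.

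In the opposite direction, Slc22a8, a basolateral organic anion carrier, had 4, 8, 10 and 13 UMIs in Slc22a7-positive nuclei, against 86, 99, 149 and 148 in Slc5a10-only nuclei, a log2 ratio of -2.77, -1.79, -2.03 and -2.08. Slc13a3 had 5, 15, 9 and 25 UMIs, against 88, 113, 128 and 215. Slc22a6, another basolateral organic anion carrier, had 1, 3, 1 and 10 UMIs, against 57, 56, 88 and 57. These 3 are the S2 markers, of 9, that were at least 2-fold lower in all 4 libraries, while Slc17a3, also an organic anion carrier, and Slc16a9 were higher in all 4. Of 23 organic anion, cation and drug transporters, 5 were higher in Slc22a7-positive nuclei in all 4 libraries and 7 lower, beside 10.3% and 14.5% of all genes, with medians of -0.21, -0.09, -0.01 and -0.36. Kynu, the kynureninase, and Cyp4a14, a fatty acid hydroxylase, were also among the lowest, with Nme2, Itpr2, Ccdc141, Enpp2 and Nat8. The 9 S2 markers had medians of -0.15, -0.17, -0.25 and -0.44, against -0.08, -0.04, -0.14 and -0.08 for all genes. Of 12 S1 markers 8 were lower in Slc22a7-positive nuclei in all 4 libraries, with medians of -0.40, -0.96, -1.15 and -1.87.

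**Figure D3:**
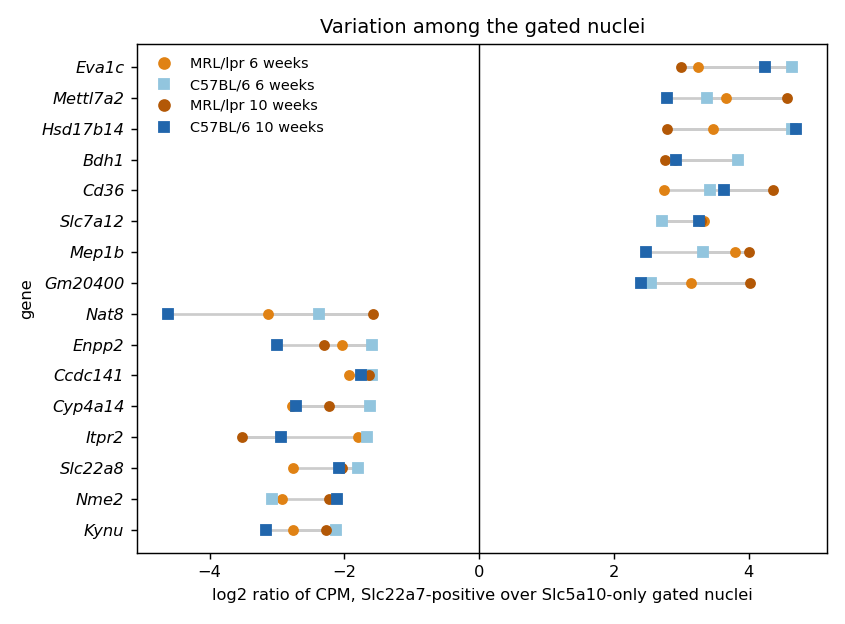
Log2 ratio of CPM in Slc22a7-positive over Slc5a10-only gated nuclei (horizontal axis) for the 8 genes furthest each way (rows), with 1 point per library. Slc7a12 lies between 2.72 and 3.34 and Slc22a8 between -2.77 and -1.79.

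Slc7a13 came almost wholly from 1 library. It was found in 13 gated nuclei of MRL/lpr mice at 6 weeks, with 17 UMIs, and in 1 gated nucleus with 1 UMI in each of the other 3 libraries. Over all barcodes passing the limits it was in 25 nuclei with 31 UMIs in MRL/lpr at 6 weeks, and in 1 nucleus in each of the others. In male mice this transporter is more abundant than in females, and 4 genes of the Y chromosome (Ddx3y, Eif2s3y, Kdm5d and Uty) had 3 UMIs together in that whole library, against 3 to 5 in the others, and 0 in its Slc7a13 nuclei. The source of the Slc7a13 UMIs was not tested. The 13 nuclei had 2 UMIs of Aadat, against 445 in the other 153 gated nuclei of that library, a log2 ratio of -4.18 (-7.23 to -2.32). Kap was higher in them, with 115 UMIs against 830 and a log2 ratio of 0.77 (0.47 to 1.05), and Ghr had 116 UMIs against 1865, a log2 ratio of -0.39 (-0.67 to -0.12). These genes were chosen after their values were seen.

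Between the strains, a small set of genes stood many-fold apart in gated nuclei at both ages. Among 4329 genes that reached 50 UMIs in all, MRL/lpr exceeded C57BL/6 by 2-fold or more at each age for 74 (1.71%) and fell short of it by 2-fold or more for 51 (1.18%). Regardless of size, 27.5% were higher at both ages and 30.1% lower, and the median of all genes was -0.02 at 6 weeks and -0.00 at 10 weeks (log2). Another 14 genes differed by 2-fold or more with opposite signs at the 2 ages. The minimum of 50 UMIs was taken over the 4 libraries together, so a gene could pass it through 1 strain alone. Prss48 did so, with 23 and 29 UMIs in MRL/lpr at 6 and 10 weeks, against 1 and 0 in C57BL/6. The strain counts are therefore a description.

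Colec12, a scavenger receptor of the collectin family, had 5598 CPM in MRL/lpr, against 33.6 CPM in C57BL/6 mice at 6 weeks, and 4820 CPM in MRL/lpr, against 10.8 CPM in C57BL/6 mice at 10 weeks. It was found in 98.8% of gated nuclei of MRL/lpr, against 2.67% of C57BL/6 at 6 weeks, and in 94.5%, against 1.18% at 10 weeks. This gave log2 ratios of 7.38 (6.25 to 8.83) and 8.80 (7.25 to 11.08) at the younger and older age. In Slc5a2-positive nuclei they were 7.04 and 8.51, and 96.0% of limb nuclei of MRL/lpr mice at 6 weeks and 91.1% at 10 weeks held Colec12, against 3.37% and 0.816% of those of C57BL/6 mice, so the strain difference was not particular to these segments. Slc7a11, the cystine and glutamate exchanger, had 54 UMIs in MRL/lpr and 0 in C57BL/6 mice at 6 weeks, and 79 in MRL/lpr and 1 in C57BL/6 mice at 10 weeks. The log2 ratio was at least 4.15 at 6 weeks, with the count of 0 set at 3 UMIs, and 6.34 (3.82 to 11.66) at 10 weeks. In the more numerous Slc5a2-positive nuclei it had 13 UMIs in MRL/lpr and 2 in C57BL/6 at 6 weeks, and 10 in MRL/lpr and 3 in C57BL/6 at 10 weeks. Its MRL/lpr level was thus 299 and 292 CPM in gated nuclei at 6 and 10 weeks, against 8.17 and 10.2 CPM in Slc5a2-positive nuclei.

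Slit3, a guidance ligand, had 288 CPM in MRL/lpr, against 11.2 CPM in C57BL/6 mice at 6 weeks, and 248 CPM in MRL/lpr, against 7.23 CPM in C57BL/6 mice at 10 weeks. Its strain log2 ratio was 4.68 and 5.10 in gated nuclei at 6 and 10 weeks, against 1.84 and 2.61 in Slc5a2-positive nuclei. The difference of these ratios was 2.84 (0.65 to 6.05) and 2.49 (0.11 to 5.78). Of the 23 genes named for the strain contrast, Slit3 was the one whose counting interval lay above 0 at both ages, and none lay below it at both. The other higher genes were AA986860, Gm3336, Mt2 (a metallothionein), Cd82 (a tetraspanin), Angptl7, Prss48 (a serine protease), Mdk (the growth factor midkine) and Stam2. Stam2, an endosomal sorting protein, was close in both classes, with log2 ratios of 2.96 and 2.78 in gated nuclei, against 3.01 and 3.11 in Slc5a2-positive nuclei at 6 and 10 weeks.

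Lowest in MRL/lpr was Pik3c2g, a lipid kinase, with 11.1 CPM in MRL/lpr, against 448 CPM in C57BL/6 at 6 weeks, and 40.7 CPM in MRL/lpr, against 343 CPM in C57BL/6 at 10 weeks. Its log2 ratio was -5.34 (-8.41 to -3.44) and -3.08 (-4.13 to -2.17). Zbtb16, a zinc finger repressor, had 44.3 CPM against 392 CPM at 6 weeks and 33.3 CPM against 228 CPM at 10 weeks, MRL/lpr first in each pair. Cyp2d26, a cytochrome P450, had 111 CPM in MRL/lpr, against 633 CPM in C57BL/6 at 6 weeks, and 107 CPM in MRL/lpr, against 604 CPM in C57BL/6 at 10 weeks. These 3 were low in both MRL/lpr libraries and also in Slc5a2-positive nuclei, where their log2 ratios were between -4.69 and -1.85. The other lower genes were Kcnk1 (a potassium channel), Eml6, Nxpe3, Cyp2d12, Angptl4 (an inhibitor of lipoprotein lipase), Slc16a14, Cpn1, Txnip and Slc27a1 (a fatty acid transporter). Txnip, which binds thioredoxin, had 5 UMIs in MRL/lpr, against 23 in C57BL/6 at 6 weeks, and 3 in MRL/lpr, against 19 in C57BL/6 at 10 weeks, with log2 ratios of -2.22 and -2.63 in gated nuclei, against -0.57 and -0.94 in Slc5a2-positive nuclei.

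**Figure D4:**
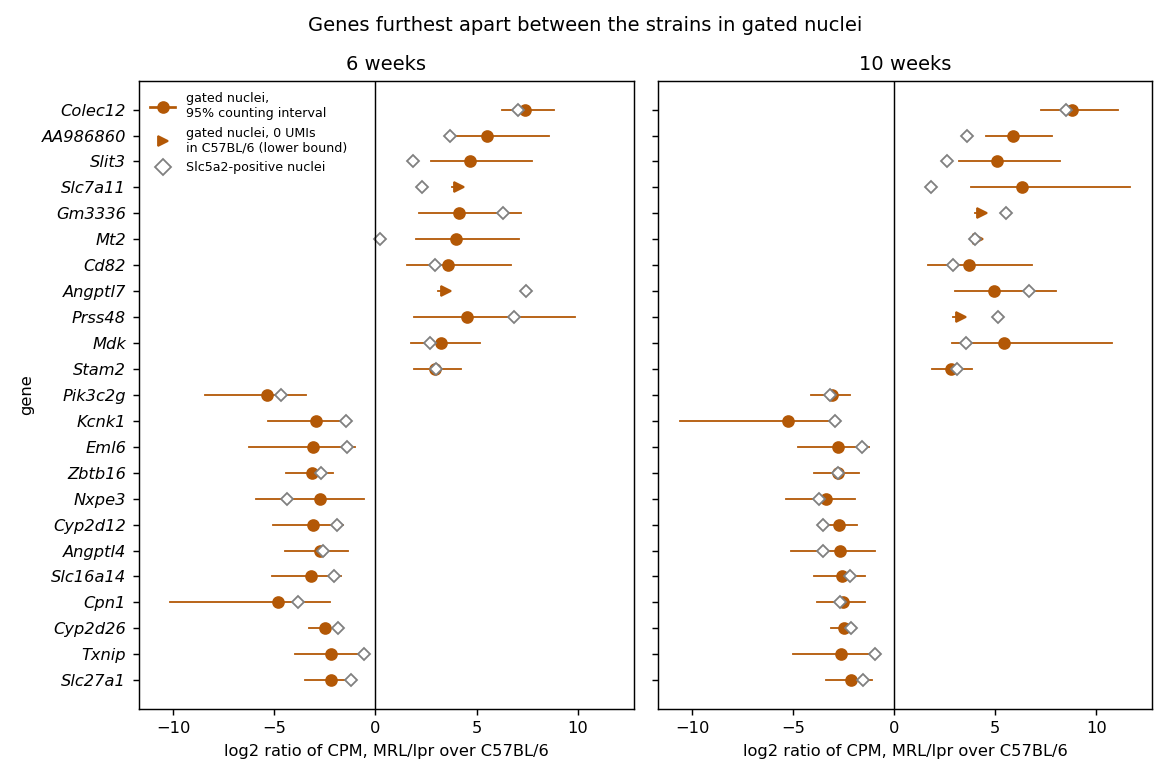
Log2 ratio of CPM in MRL/lpr over C57BL/6 (horizontal axis) at 6 and 10 weeks for 11 genes among the highest and 12 among the lowest in gated nuclei (rows); filled symbols with 95% counting intervals are gated nuclei, triangles lower bounds where C57BL/6 had 0 UMIs, and open diamonds Slc5a2-positive nuclei. Colec12 lies at 7.38 and 8.80, and the 2 classes lie close for Colec12 and Stam2 and apart for Slit3.

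Genes of fatty acid oxidation and of gluconeogenesis were more often lower than higher in MRL/lpr gated nuclei. Of 29 genes of the peroxisome and fatty acid oxidation with enough UMIs, 17 were lower at both ages and 2 higher, where 30.1% of all genes were lower and 27.5% higher, and 2 of the 17 were at least 2-fold lower, where 1.18% of all genes were. The list's median was -0.52 at 6 weeks and -0.38 at 10 weeks in gated nuclei, and -0.41 and -0.43 in Slc5a2-positive nuclei, so it did not single out the gated class. Cyp4a14 had 393 CPM in MRL/lpr, against 1278 CPM in C57BL/6 at 6 weeks, and 133 CPM in MRL/lpr, against 882 CPM in C57BL/6 at 10 weeks. Its log2 ratio was -1.70 (-2.11 to -1.31) and -2.73 (-3.28 to -2.22). Cyp4a10, its close relative, had log2 ratios of -1.76 and -1.87, and UMIs may be split between such near-identical genes. The most abundant members were less far apart: Scp2, a lipid carrier, had log2 ratios of 0.39 and -0.56, Acaa1b, a peroxisomal thiolase, of -0.69 and -0.49, the receptor Ppara of -0.74 and 0.19, and Hao2, a peroxisomal hydroxyacid oxidase, of 0.33 and -0.97.

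Of 14 genes of gluconeogenesis and ammoniagenesis 10 were lower in MRL/lpr at both ages and 2 higher, beside the same 30.1% and 27.5% of all genes. Pck1, which commits carbon to glucose, had 857 CPM in MRL/lpr, against 1497 CPM in C57BL/6 at 6 weeks, and 621 CPM in MRL/lpr, against 2266 CPM in C57BL/6 at 10 weeks. G6pc, the last enzyme of glucose release, had log2 ratios of -0.73 (-1.12 to -0.36) and -1.49 (-1.82 to -1.17). In Slc5a2-positive nuclei the list's medians were -0.35 and -0.41, against -0.44 and -0.41 in gated nuclei. Among 18 amino acid and peptide transporters 9 were lower at both ages and 2 higher, and of 16 glutathione and redox genes 6 were lower, near the 30.1% of all genes, and 2 higher. Gpx1, a glutathione peroxidase, had 492 CPM in MRL/lpr, against 1194 CPM in C57BL/6 at 6 weeks, and 388 CPM in MRL/lpr, against 925 CPM in C57BL/6 at 10 weeks. The 13 mitochondrially encoded genes, which mark cytoplasmic carry-over in nuclear libraries, summed to 463 UMIs in MRL/lpr and 487 in C57BL/6 at 6 weeks, and to 221 in MRL/lpr and 544 in C57BL/6 at 10 weeks. They were thus low in the 10-week MRL/lpr library, and their part in the differences at that age was not tested.

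The counts of the other lists stand beside 27.5% of all genes higher and 30.1% lower at both ages. Organic anion, cation and drug transporters had 8 of 23 higher and 3 lower at both ages, and cytochrome P450 and conjugation genes 6 of 17 higher and 5 lower. Cyp4b1, a cytochrome P450 that is sex-biased in mouse kidney, was higher in MRL/lpr, with 387 CPM, against 118 CPM in C57BL/6 at 6 weeks, and 377 CPM, against 39.8 CPM in C57BL/6 at 10 weeks. Of 15 sex-biased kidney genes 5 were higher and 4 lower. Sugar and carboxylate transporters had 5 of 12 lower and none higher. Of 5 injury genes with enough UMIs, 1 was higher and 2 lower at both ages, and the higher one, Spp1 (osteopontin), had 797 CPM in MRL/lpr, against 516 CPM in C57BL/6 at 6 weeks, and 806 CPM in MRL/lpr, against 322 CPM in C57BL/6 at 10 weeks. Clock genes had 2 of 9 higher and 2 lower, and none of 12 cell cycle genes had enough UMIs.

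The S3 markers themselves did not separate the strains in 1 direction. At both ages MRL/lpr was above C57BL/6 for 6 of the 21 with enough UMIs and below it for 4, beside 27.5% and 30.1% of all genes, and the medians were 0.42 at 6 weeks and -0.01 at 10 weeks. Slc7a12 had a strain log2 ratio of 1.23 (0.86 to 1.61) at 6 weeks and -0.85 (-1.14 to -0.57) at 10 weeks. Kap had 1.00 (0.84 to 1.16) and -0.66 (-0.81 to -0.51). MRL/lpr thus had the higher level of both at the younger age and the lower level at the older. In Slc5a2-positive nuclei the ratios of Kap took the same signs, 0.84 (0.60 to 1.10) and -0.65 (-0.97 to -0.33). Those of Slc7a12 were 0.55 (-0.31 to 1.46) and -0.65 (-2.03 to 0.63), and both intervals include 0. Slc22a19 was the one S3 marker 2-fold or more above C57BL/6 at each age, with log2 ratios of 1.47 (0.85 to 2.12) and 1.31 (0.73 to 1.92). S1 markers outside the rule had 2 of 12 higher and 5 lower, and S2 markers 3 of 9 higher and 1 lower.

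For a few genes the strain difference itself was unlike that of the Slc5a2-positive nuclei. The strain log2 ratio was higher by 1 or more in gated nuclei at both ages for 19 of 4329 genes (0.439%) and lower by 1 or more for 19 (0.439%). Counting intervals of the difference lay above 0 at both ages for 18 genes (0.416%) and below 0 for 13 (0.3%). No test between conditions stands behind these counts, since each strain and age was 1 library.

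Dock9, an activator of the small GTPase Cdc42, led the first group. It had 1200 CPM in MRL/lpr, against 308 CPM in C57BL/6 gated nuclei at 6 weeks, and 1334 CPM in MRL/lpr, against 296 CPM in C57BL/6 at 10 weeks. In Slc5a2-positive nuclei the values were 535 CPM in MRL/lpr, against 513 CPM in C57BL/6 at 6 weeks, and 730 CPM in MRL/lpr, against 431 CPM in C57BL/6 at 10 weeks. The difference of log2 ratios was 1.90 (1.44 to 2.38) at the younger age and 1.41 (1.02 to 1.81) at the older. Its UMIs were spread over 106 and 169 gated nuclei of MRL/lpr mice at 6 and 10 weeks and over 43 and 64 of C57BL/6 mice, with at most 9 in 1 nucleus. Dnm3, a dynamin, had differences of 2.27 (0.97 to 3.71) and 2.73 (1.36 to 4.12). Slco1a6, an organic anion carrier, had 714 CPM in MRL/lpr, against 532 CPM in C57BL/6 gated nuclei at 6 weeks, and 551 CPM in MRL/lpr, against 604 CPM in C57BL/6 at 10 weeks, against strain log2 ratios of -0.91 and -1.88 in Slc5a2-positive nuclei, a difference of 1.34 and 1.75. Acox2, an oxidase of branched-chain fatty acids and bile acid precursors, had strain log2 ratios of -0.58 and -0.19 in gated nuclei, against -2.25 and -2.16 in Slc5a2-positive nuclei. For Slco1a6 and Acox2 the gap between the strains was thus mainly in the Slc5a2-positive nuclei. Akr1c21, a steroid dehydrogenase, had -0.41 and -0.93, against -1.48 and -1.61. Defb29, Phyhipl, Slc8a1, Slc22a28 and Slc9a8 completed the group. Slc8a1, a calcium exchanger of the distal tubule, is uncertain: up to 54 to 60 of its UMIs fell in 1 nucleus in 3 of the libraries, and its difference turned to -4.99 and -0.05 without nuclei marked as doublets.

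Abcc4, an efflux pump for organic anions and cyclic nucleotides, led the second group. It had 127 CPM in MRL/lpr, against 415 CPM in C57BL/6 gated nuclei at 6 weeks, and 170 CPM in MRL/lpr, against 484 CPM in C57BL/6 at 10 weeks. Slc5a2-positive nuclei showed no such gap, with 281 CPM in MRL/lpr, against 267 CPM in C57BL/6 at 6 weeks, and 302 CPM in MRL/lpr, against 294 CPM in C57BL/6 at 10 weeks. The difference of log2 ratios was -1.78 (-2.55 to -1.05) and -1.55 (-2.12 to -1.0). In Esr1, the estrogen receptor alpha, the strains differed in the Slc5a2-positive nuclei instead. Its gated levels were 66.4 CPM in MRL/lpr and 118 CPM in C57BL/6 at 6 weeks and 85.0 CPM in MRL/lpr and 83.1 CPM in C57BL/6 at 10 weeks, while in Slc5a2-positive nuclei it had 29.6 CPM in MRL/lpr, against 10.0 CPM in C57BL/6 at 6 weeks, and 44.7 CPM in MRL/lpr, against 7.68 CPM in C57BL/6 at 10 weeks. Its difference was -2.39 (-3.92 to -0.88) and -2.51 (-4.08 to -1.02). Apoe, the lipid carrier, had 105 CPM in MRL/lpr, against 280 CPM in C57BL/6 gated nuclei at 6 weeks, and 88.7 CPM in MRL/lpr, against 304 CPM in C57BL/6 at 10 weeks. In Slc5a2-positive nuclei it had 379 CPM in MRL/lpr, against 275 CPM in C57BL/6 at 6 weeks. At 10 weeks it had 242 CPM in MRL/lpr, against 403 CPM in C57BL/6, so it was then lower in MRL/lpr in both classes. Hpd (an enzyme of tyrosine breakdown), Rims2, Zmiz1, Cd74, Erbb4 (a growth factor receptor) and Gsta2 (a glutathione transferase) were the others.

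**Figure D5:**
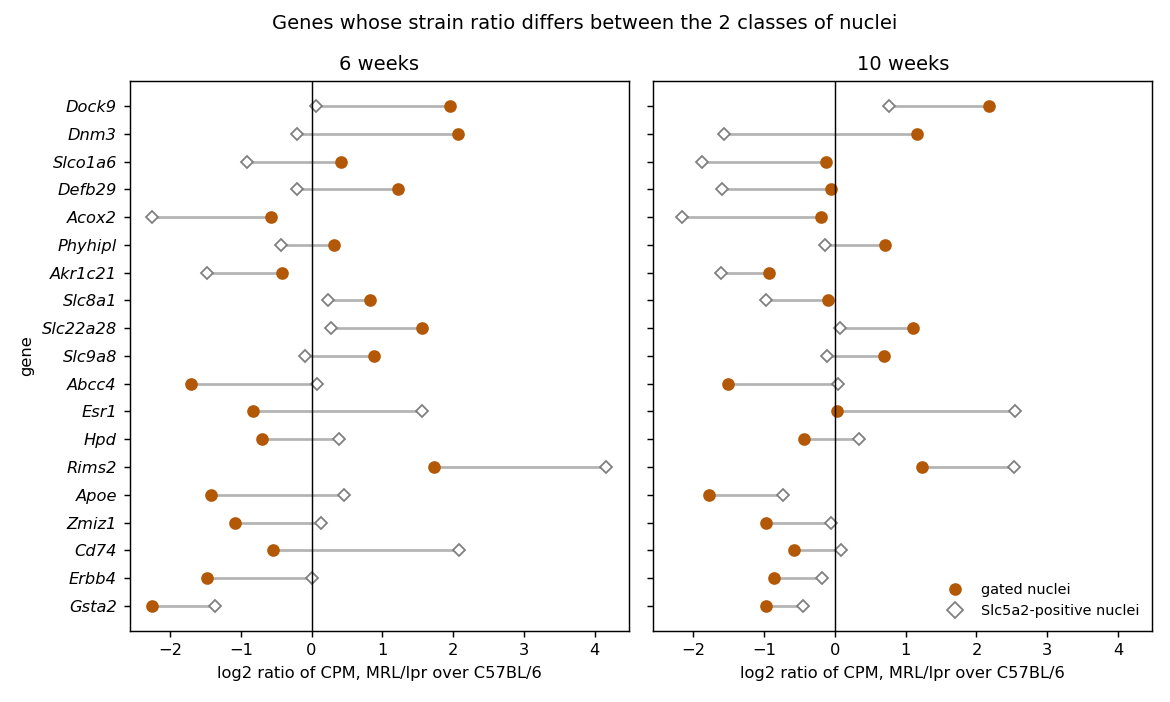
Log2 ratio of CPM in MRL/lpr over C57BL/6 (horizontal axis) at 6 and 10 weeks, in gated nuclei (filled circles) and Slc5a2-positive nuclei (open diamonds), for 10 genes whose strain ratio was higher and 9 whose ratio was lower in gated nuclei (rows). Dock9 lies at 1.96 and 2.17 in gated nuclei, against 0.06 and 0.76 in Slc5a2-positive nuclei, and Abcc4 at -1.70 and -1.51, against 0.07 and 0.04.

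Interferon and antigen-presentation genes were sparse in the gated nuclei. Their 28 listed genes summed to 238 UMIs in MRL/lpr, against 158 in C57BL/6 at 6 weeks, and to 380 in MRL/lpr, against 456 in C57BL/6 at 10 weeks. Of the 5 members with enough UMIs, 3 were lower in MRL/lpr at both ages and none higher, beside 30.1% and 27.5% of all genes. The log2 ratio of the sum was 0.57 (0.28 to 0.87) at 6 weeks, against 1.39 in Slc5a2-positive nuclei, a difference of -0.81 (-1.12 to -0.50). At 10 weeks the log2 ratio of the sum was -0.23, against -0.04, a difference of -0.19 (-0.41 to 0.03). The interferon-inducible GTPases among them were higher in MRL/lpr at 10 weeks, with 45 UMIs, against 18 in C57BL/6, a log2 ratio of 1.35 (0.54 to 2.23), against 1.63 in Slc5a2-positive nuclei. At 6 weeks they had 11 UMIs in MRL/lpr and 9 in C57BL/6, a log2 ratio of 0.27 (-1.14 to 1.72). Without Cd74, the invariant chain of MHC class II, and the class II genes, the differences of the summed list between gated and Slc5a2-positive nuclei were -0.25 (-0.60 to 0.11) and 0.16 (-0.11 to 0.43). Cd74 had 16 UMIs in MRL/lpr, against 23 in C57BL/6 gated nuclei at 6 weeks, and 70 in MRL/lpr, against 107 in C57BL/6 at 10 weeks. In C57BL/6 its UMIs sat in few nuclei, 4 at 6 weeks with 15 UMIs in 1 of them and 16 at 10 weeks with 37 in 1, against 12 and 47 nuclei in MRL/lpr. B2m, the MHC class I light chain, had 697 CPM in MRL/lpr, against 280 CPM in C57BL/6 at 6 weeks, and 473 CPM in MRL/lpr, against 524 CPM in C57BL/6 at 10 weeks.

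Between the ages few genes moved alike in both strains. At 10 over 6 weeks, 13 of 4329 genes (0.3%) were at least 2-fold higher in both strains and 14 (0.323%) at least 2-fold lower, and 16 differed by that much with opposite signs in the strains. These ratios share libraries with the strain ratios. Gadd45g, a stress and growth arrest gene, was lowest, with 77.6 CPM at 10 weeks, against 526 CPM at 6 weeks in MRL/lpr, and 112 CPM at 10 weeks, against 331 CPM at 6 weeks in C57BL/6 mice. Its log2 ratio was -2.76 (-3.52 to -2.07) and -1.56 (-2.24 to -0.91). Slc5a2-positive nuclei showed the same direction. There Gadd45g had 67.05 CPM at 10 weeks, against 275 CPM at 6 weeks in MRL/lpr, and 107.5 CPM, against 252 CPM in C57BL/6. Glt1d1, named for its glycosyltransferase domain, was higher, with 64 UMIs at 10 weeks, against 16 at 6 weeks in MRL/lpr, and 53 at 10 weeks, against 8 at 6 weeks in C57BL/6 mice, a log2 ratio of 1.42 (0.61 to 2.31) and 2.09 (1.01 to 3.38). Cd74 had 1.55 (0.75 to 2.43) and 1.58 (0.92 to 2.30), and Id4, an inhibitor of helix-loop-helix factors, 1.67 (0.08 to 3.68) and 2.48 (0.78 to 4.85). In Slc5a2-positive nuclei of MRL/lpr, Cd74 was instead lower at 10 weeks, with 398 CPM, against 690 CPM at 6 weeks. In those of C57BL/6 it was higher, with 374 CPM, against 163 CPM. Chtop, Top3b and Gin1 were the other higher genes named by the rule, and Angptl4, Rps27l, Emcn, Gde1 and Mrpl34 the other lower ones. Of these, Rps27l and Emcn had counting intervals on 1 side of 0 in both strains. Emcn, an endothelial marker, had 12 UMIs at 10 weeks, against 18 at 6 weeks in MRL/lpr, and 7 at 10 weeks, against 25 at 6 weeks in C57BL/6.

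Markers of other cell types were present, not all of them at low levels. The 5 distal and connecting tubule markers were the most abundant. They had 1344 CPM in MRL/lpr and 1508 CPM in C57BL/6 gated nuclei at 6 weeks, and 865 CPM and 1059 CPM at 10 weeks. The 3 S2 and S3 genes of the rule summed to 1145, 986.5, 1353 and 1171 CPM in that order. In Slc5a2-positive nuclei the distal markers had 1798, 1867, 1548 and 2823 CPM. Thick ascending limb markers, 5 genes, had 437, 919, 351 and 473.5 CPM in gated nuclei, against 1005, 592, 493 and 616 CPM in Slc5a2-positive nuclei. Endothelial markers had 277, 353, 170 and 134 CPM. Lymphocyte markers had 2 UMIs in MRL/lpr and 8 in C57BL/6 at 6 weeks and 1 in MRL/lpr and 12 in C57BL/6 at 10 weeks, with 6, 4, 7 and 5 of the 8 genes at 0. Macrophage markers had 11, 13, 17 and 45 UMIs in that order of libraries. C57BL/6 at 10 weeks thus had the most macrophage and lymphocyte UMIs in the gated nuclei, the library with the most Cd74, and their part in its level was not tested.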

How the data were processed

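Single-nucleus RNA libraries from kidneys of 4 groups, 1 library each, were analysed. The authors deposited UMI counts per gene and barcode for 25636 genes, with barcodes already called. Cell Ranger is given as version 5.0.0 per the file headers and as 3.1.0 per the submitters' processing notes, and the genome build of the alignment is not given in the sources used here. Library totals were 7660682 UMIs in MRL/lpr and 6847593 in C57BL/6 mice at 6 weeks and 6466973 in MRL/lpr and 6754055 in C57BL/6 mice at 10 weeks.

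From the counts, barcodes were gated as described, UMIs were summed per class and library and scaled to CPM, and genes with at least 50 UMIs over the classes and libraries compared were kept. Log2 ratios carry conditional exact binomial 95% intervals, differences of ratios exact intervals of an odds ratio, and shares Clopper-Pearson intervals. All of them cover counting error only, so with 1 library per group no p-value was computed. A sum of 0 was set at 3 UMIs, and the counting interval can reach nearer to 0 than the ratio so given. Shares were also computed after thinning each barcode to 500 UMIs, averaged over 50 draws, a number chosen after a single draw had proved unstable. The scripts used Python 3.11.15, numpy 2.4.6, scipy 1.17.1 and scanpy 1.11.5 (for Scrublet), and were tested on simulated data.

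Genes were named by rule: the 12 furthest each way between classes and between strains and the 6 each way between ages, ranked by the log2 ratio nearest 0 of the libraries compared with 1 sign in all, and the 10 each way whose strain ratio differed most between classes, ranked by the interval bound nearest 0. Of these, 2 genes are not reported here. From each list, up to 4 members with most UMIs could be described, and other members named were chosen after their values were seen. The nuclei, lists and rules were chosen with earlier results of these data known. The alternatives tried concerned the gate, doublets, depth, scaling, gene minimum and single libraries.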

Additional observations from a re-analysis of the deposited data

Results flagged for a closer look

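Angpt1 had a strain log2 ratio in gated nuclei of -2.48 (-5.69 to -0.28) at 6 weeks and of 1.23 (0.11 to 2.47) at 10 weeks, that is, on opposite sides of 0 at the 2 ages. These ratios rest on 2 UMIs in MRL/lpr, against 11 in C57BL/6 at 6 weeks, and 23 in MRL/lpr, against 10 in C57BL/6 at 10 weeks, and the difference between the ages was not tested.

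Dnm3 had a strain log2 ratio at 10 weeks of 1.16 in gated nuclei, against -1.57 in Slc5a2-positive nuclei, opposite in the 2 classes. It had 24 UMIs in MRL/lpr and 11 in C57BL/6 gated nuclei, and 21 in MRL/lpr and 66 in C57BL/6 Slc5a2-positive nuclei. With 1 library per strain, the difference was not tested over samples.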

How the results depend on the processing

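No paired analysis was possible because each group has replicate 1 alone, so the groups share fewer than 2 replicate numbers, and no result comes from a test. The counts given as higher and lower were 109 and 65 between classes, 74 and 51 between strains, 19 and 19 for the difference of strain ratios and 13 and 14 between ages. With at least 2 UMIs of the S2 and S3 genes, 860 genes were higher between classes, strain counts were 14 and 13, difference counts 11 and 4, and age counts 4 and 2. This gate held 29 nuclei in MRL/lpr and 20 in C57BL/6 at 6 weeks, and 57 and 55 at 10 weeks. In classes that small, a sum of 0 set at 3 UMIs is a larger CPM. Genes without UMIs in gated nuclei can therefore be among the 860. The gated share was then 0.895% in MRL/lpr and 0.832% in C57BL/6 at 6 weeks and 1.80% and 2.21% at 10 weeks, and the 6-week strain ratio of the share 1.08. Without Slc5a10 in the gate, class counts were 595 and 102, strain counts 25 and 16, the lower difference count 7 and the lower age count 8, with shares of 1.54%, 1.08%, 2.03% and 2.49% in that order and a 6-week ratio of 1.43. The 595 higher genes can also include genes without UMIs in gated nuclei. Without Slc22a7 the lower class count was 39 and the lower difference count 12, with shares of 4.26% in MRL/lpr at 6 weeks and 7.53% in MRL/lpr and 8.5% in C57BL/6 at 10 weeks. With all 4 core genes, class counts were 52 and 26, strain counts 28 and 30, difference counts 7 and 12 and the lower age count 6, with 10-week shares of 12.1% in MRL/lpr and 8.96% in C57BL/6 and a 10-week ratio of 1.35. After thinning, shares were 3.25%, 3.76%, 6.91% and 6.19%, and the 10-week ratio 1.12. Without barcodes marked as doublets the lower difference count was 12, and against all other proximal tubule nuclei the lower class count was 23. At a minimum of 20 UMIs per gene, strain counts were 180 and 151, difference counts 93 and 99 and age counts 67 and 60. At 200 UMIs the higher class count was 47, strain counts 9 and 9, difference counts 3 and 1 and age counts 2 and 1, so these counts depend on the minimum. Leaving out 1 library at a time, where fewer libraries have to agree, gave 130 to 142 higher and 92 to 120 lower genes between classes. A few named genes changed sign. Slc8a1's difference was -4.99 at 6 weeks and -0.049 at 10 weeks without doublets, -1.04 at 10 weeks with at least 2 UMIs, -1.11 at 10 weeks without Slc5a10, -3.11 and -2.50 with all 4 core genes, and -1.58 at 6 weeks in nuclei of 500 to 1500 UMIs. With at least 2 UMIs, the 6-week strain ratio was 1.03 for Nxpe3, the age ratio in MRL/lpr -0.43 for Id4, -0.33 for Cd74 and -0.16 for Top3b (-0.53 in C57BL/6), and the difference 0.49 and 0.17 for Zmiz1 and 0.029 for Gsta2 at 10 weeks. Without Slc5a10, the age ratio was -0.72 for Cd74 and -0.94 for Chtop in C57BL/6 and -0.13 for Top3b and 1.45 for Emcn in MRL/lpr, and the 10-week difference was 1.28 for Cd74 and 0.26 for Erbb4. Chtop had -0.37 in C57BL/6 with all 4 core genes, and Cd74's 10-week difference was 2.00 in nuclei of 500 to 1500 UMIs. The causes were not tested. The gate without Slc7a13, a common UMI minimum of 308, a mitochondrial limit of 5%, scaling without mitochondrial and the 20 leading genes, and centring on the median gene moved none of the results recomputed under them by more than their stated limits. Over all values for named genes and lists, 1417 stayed close to the reported value, 161 moved and 23 changed sign. Of the headline values recomputed under the alternatives, 98 stayed close to the reported value and 60 moved.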
